A study of Mus musculus with 12 samples.

Results

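Macrophage and Kupffer cell markers, a group of 33 genes, were described in mouse liver and in cultured aortic endothelial cells that differ in Dscr-1 and ApoE. The genes were chosen by name as known markers, with earlier results of these data known. Each was read from its brightest probe set annotated to that gene alone. Of the 33 genes, 32 had such a probe set among the 18193 genes measured in this way, and Spp1 was not analysed here. They were split into 10 markers of resident Kupffer cells, 7 of monocytes and recruited macrophages, 5 of lipid-associated macrophages and 11 general myeloid receptors and adaptors. The arrays were Affymetrix GeneChip Mouse Genome arrays, with total RNA of 1 mouse per liver array. The liver groups were WT mice, Dscr-1 null mice, ApoE null mice and double null mice lacking both genes, with 2 mice each. All were adult C57BL/6J mice. The labels give a high-fat diet for 12 weeks to all 8 liver mice, whereas the text of the study gives normal chow for the arrays, so the diet cannot be settled here. The aortic groups were primary endothelial cells from ApoE null and double null mice, isolated from the aorta and cultured for several days, with 2 arrays each. By the titles and genotype labels every aortic sample therefore lacks ApoE, although the series design names Dscr-1 null as the control. No WT aortic cells were analysed here.

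Kupffer cells are the resident macrophages of the liver. They sit in the sinusoids, depend on the receptor Csf1r and clear particles, lipoproteins and aged red cells from the blood. Monocytes from the bone marrow enter the liver when it is stressed and can mature into macrophages, and macrophages that take up much lipid show a set of genes that includes Trem2, Gpnmb, Lgals3 and Cd68. ApoE carries lipoproteins to their receptors and is made by hepatocytes and by macrophages. Dscr-1, the product of Rcan1, is a feedback inhibitor of calcineurin.

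Liver values were MAS5 signals, a linear brightness in arbitrary units, with every array brought to the same average of 100 by the authors. Tests were run with limma on log2(signal + 16), so log2 differences understate the change of dim genes. The test was restricted to probe sets brighter than the array median in 2 or more samples of a tissue, which 31 members met in liver and 9 in aortic cells. Itgam, measured in liver but above the median on 1 array, was not tested there. Apoe had a signal of 19940 to 21510 on the 4 WT and Dscr-1 null arrays and of 79.8 to 305.0 on the 4 ApoE null and double null arrays. Whether the Rcan1 probe sets lie in the deleted part of that gene is not known here, so the Dscr-1 genotype rests on the labels. ApoE null liver replicate 1 stood apart, with a mean correlation of 0.873 with the other liver arrays across tested probe sets against 0.904 to 0.912 for the other 7, and a median signal of 44.7 against 32.2 to 37.6. In bulk RNA, more cells of a type and more RNA per cell cannot be told apart. No value here counts cells.

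All 8 livers entered the comparison of the 4 livers lacking ApoE, from ApoE null and double null mice, with the 4 livers that had it, from WT and Dscr-1 null mice. Of the 32 members, 28 had a higher mean log2 value without ApoE and 4 a lower one, with a median log2 difference of 0.77. Over all 18193 genes 51.8% were higher and the median was 0.02. Without the pair of arrays on which most members peaked, ApoE null replicate 1 and double null replicate 1, 27 of 32 were higher and the median was 0.52, and without each array in turn 26 to 30 were higher. The lists differed in their medians. Lipid-associated markers were higher in 4 of 4 measured (median 1.83), general myeloid genes in 11 of 11 (median 0.81), monocyte markers in 6 of 7 (median 0.62) and resident Kupffer cell markers in 7 of 10 (median 0.47).

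**Figure D1:**
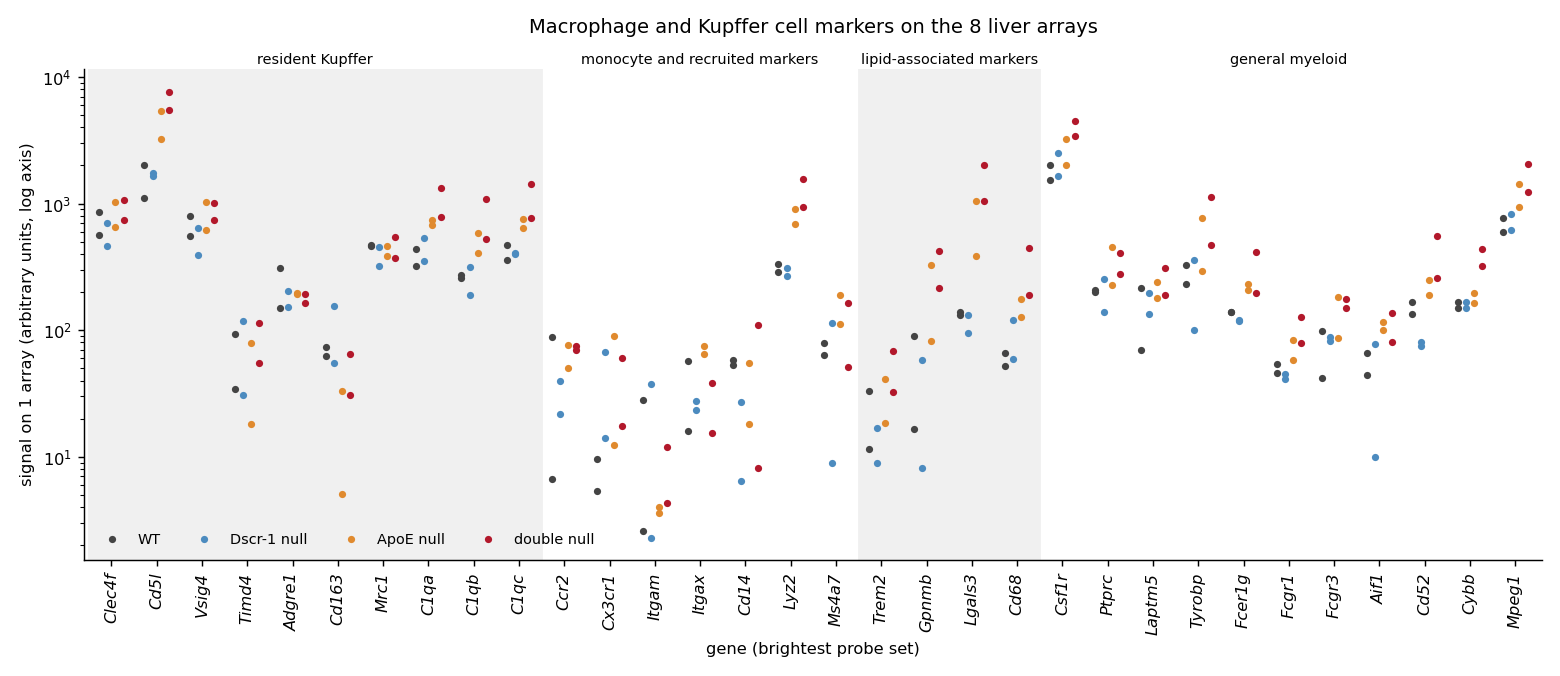
Signal of each of the 32 measured members on each of the 8 liver arrays, on a log axis, with 1 point per array and colours for the 4 genotypes. Lgals3 lay between 387.8 and 2008 on the ApoE null and double null arrays and between 95.1 and 138.9 on the others, while Mrc1 and Adgre1 overlapped.

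None of the 31 tested members passed an adjusted p under 0.05, a threshold that 0.00678% of all tested genes passed. At an unadjusted p under 0.05, 17 members were higher, against 3.94% of all tested genes, and 1 was lower, against 1.74%. The lower member, Cd163, was tested only because of the ApoE-intact arrays, so its call is no result. For 12 members every ApoE-lacking liver lay above every ApoE-intact liver, against 2.24% of all tested genes. These 12 were Cd5l, C1qa, C1qb, C1qc, Lyz2, Lgals3, Cd68, Fcer1g, Fcgr1, Aif1, Cd52 and Mpeg1. The number of calls changed with the fit. With a variance trend and robust eBayes, 10 members passed (Lgals3, Lyz2, Cd5l, C1qa, C1qb, C1qc, Cd52, Cd68, Csf1r and Mpeg1), and 0.474% of all genes did.

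Among the lipid-associated markers, Lgals3 encodes galectin-3, a lectin that macrophages secrete. Its signal was 132.5 and 138.9 in WT, 131.2 and 95.1 in Dscr-1 null, 1044 and 387.8 in ApoE null livers, and 2008 and 1051 in those of double null mice. All 4 ApoE-lacking livers lay above all 4 others, and the ratio of the means was 9.02. The log2 difference was 2.82 (standard error 0.39), the widest of all members, with an adjusted p of 0.535 from limma. Over the 16 alternatives run, that adjusted p ran from 9.69e-09 to 0.837 and the difference from 2.47 to 3.16.

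Gpnmb, a membrane glycoprotein of lipid-laden macrophages, had signals of 90.8 and 16.5 in WT, 57.9 and 8.2 in Dscr-1 null, 324.4 and 82.4 in ApoE null livers, and 425.8 and 214.3 in those of double null mice. The groups overlapped through WT replicate 1, and the ratio of means was 6.04 (log2 difference 2.28, standard error 0.60, adjusted p = 0.597 from limma). A dimmer probe set of Gpnmb, with signals of 1.8 to 34.3, gave a log2 difference of 0.88. Cd68, an endosomal glycoprotein of macrophages, had signals of 65.8 and 51.9 in WT, 121.3 and 59.4 in Dscr-1 null, 177.2 and 126.9 in ApoE null livers, and 445.2 and 189.1 in those of double null mice. The groups did not overlap (log2 difference 1.38, standard error 0.36, adjusted p = 0.597 from limma). Trem2, a lipid-sensing receptor, was near the limit of detection. It exceeded the array median on 3 of 8 arrays, with signals of 9.0 to 33.0 in ApoE-intact and 18.5 to 68.8 in ApoE-lacking livers, which overlapped.

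**Figure D2:**
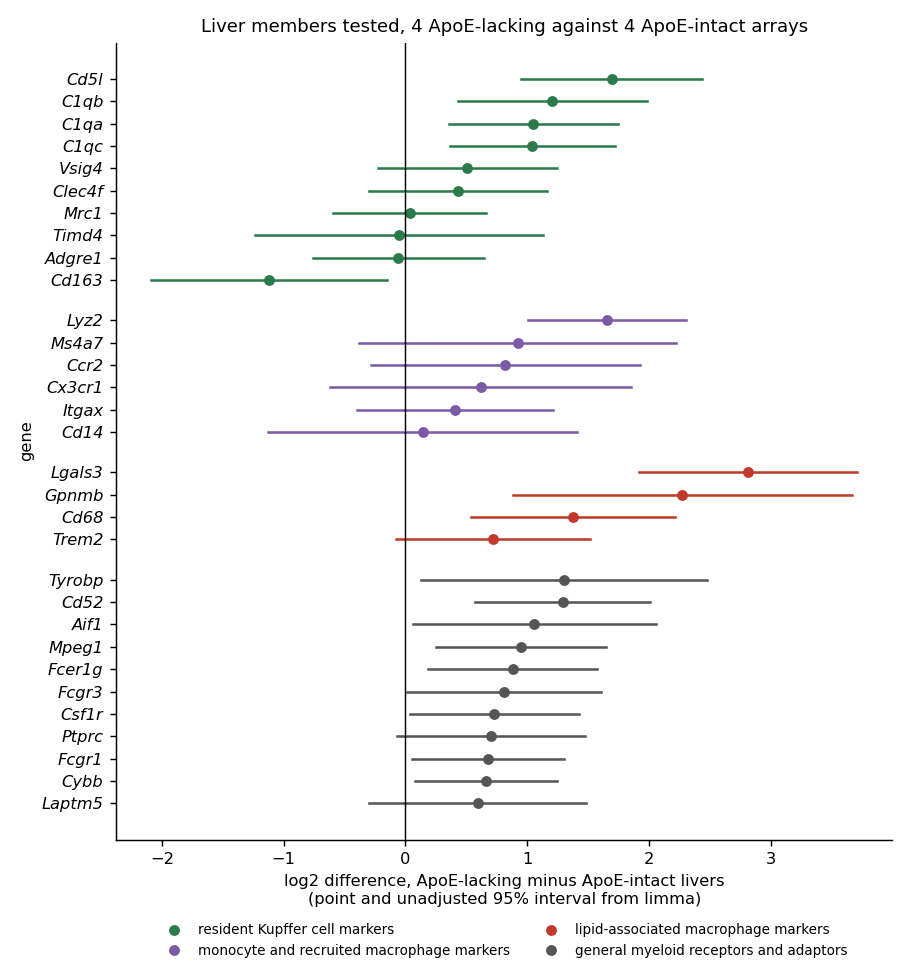
Log2 difference between the 4 ApoE-lacking and the 4 ApoE-intact livers for the 31 tested members, grouped by list, with the point estimate and unadjusted 95% interval from limma. Lgals3, Gpnmb, Cd5l and Lyz2 lay furthest to the right. Cd163 was the only member whose interval lay below 0, but it was tested only because of the ApoE-intact arrays.

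Resident Kupffer cell markers differed from one another. Cd5l, a scavenger protein also called AIM, is released into the blood by resident macrophages. Its signal was 1114 and 2020 in WT, 1644 and 1745 in Dscr-1 null, 5413 and 3208 in ApoE null livers, and 7666 and 5471 in those of double null mice. The ApoE-lacking livers all lay above the others, with a ratio of means of 3.34 (log2 difference 1.69, standard error 0.32, adjusted p = 0.535 from limma).

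The 3 chains of complement C1q, which macrophages make, were each higher in every ApoE-lacking liver than in any other. C1qa ranged from 319.6 to 535.6 in ApoE-intact and from 681.8 to 1328 in ApoE-lacking livers. C1qb ranged from 189.9 to 312.9 and from 406.0 to 1094, and C1qc from 361.0 to 467.3 and from 644.4 to 1422. Their log2 differences were 1.05, 1.21 and 1.04, in that order, with standard errors of 0.29 to 0.34 and adjusted p-values of 0.619 to 0.622 from limma. C1qb had a pair of further probe sets, with log2 differences of 0.71 and 1.11.

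Clec4f, Vsig4, Adgre1, Mrc1 and Timd4, which are in the same list, differed less between the groups. Clec4f, a lectin particular to Kupffer cells in mice, had signals of 458.5 to 859.8 in ApoE-intact and 650.0 to 1063 in ApoE-lacking livers. Vsig4, a complement receptor, had signals of 392.5 to 791.3 and 614.5 to 1021. The groups overlapped for both, with log2 differences of 0.43 (95% interval −0.30 to 1.16) and 0.51 (−0.23 to 1.25). Adgre1, which encodes F4/80, differed by −0.06 (−0.76 to 0.64), and Mrc1, the mannose receptor, by 0.03 (−0.59 to 0.66). Timd4, a phosphatidylserine receptor of long-lived resident macrophages, was dim, with signals of 31.0 to 117.7 in ApoE-intact and 18 to 113.8 in ApoE-lacking livers, and its interval was wide (−1.24 to 1.13). These intervals leave room for a difference in either direction.

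Cd163, the scavenger receptor for haptoglobin and haemoglobin, had its difference in the other direction. Its signal was 73.3 and 62.9 in WT, 54.7 and 156.6 in Dscr-1 null, 5.1 and 32.8 in ApoE null livers, and 30.7 and 64.5 in those of double null mice. It exceeded the array median on 4 of 4 ApoE-intact and 1 of 4 ApoE-lacking arrays, and the groups overlapped through double null replicate 2. It was tested only because of the ApoE-intact arrays, so no size is given for its difference.

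**Figure D3:**
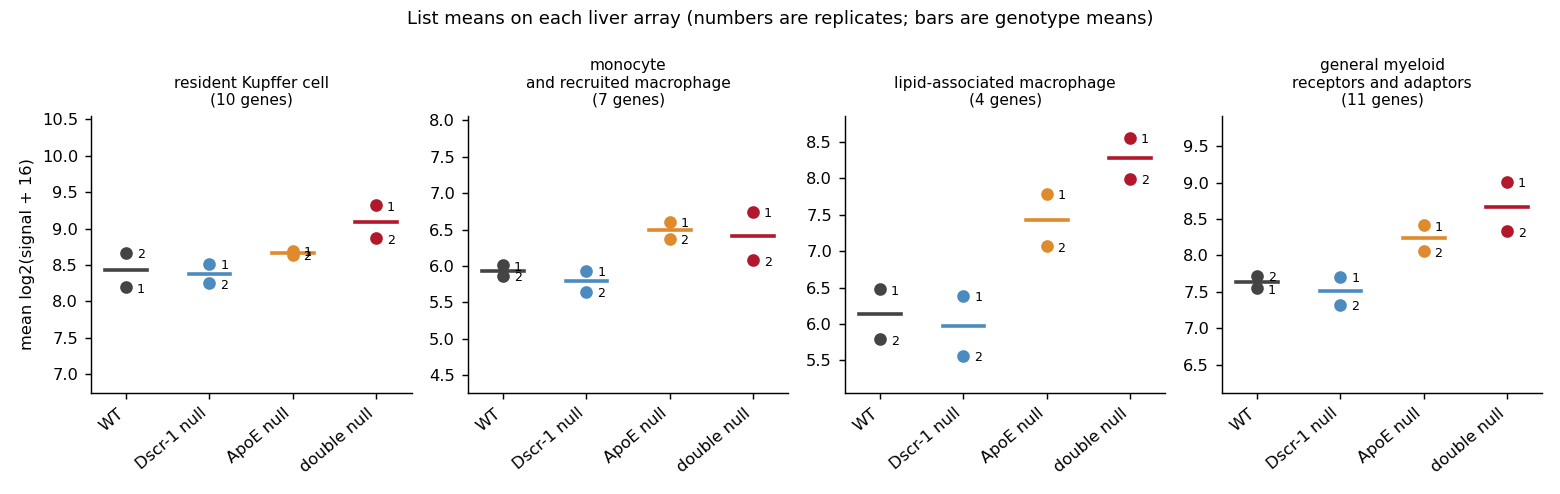
Mean log2(signal + 16) of the measured members of each list on each liver array, with the replicate number beside each point and a bar at the mean of each genotype; the 4 axes span the same number of log2 units but start at different levels. The lipid-associated mean was 5.57 to 6.48 on ApoE-intact and 7.07 to 8.56 on ApoE-lacking arrays, while the resident Kupffer cell mean of WT replicate 2 (8.66) lay above that of ApoE null replicate 2 (8.64).

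Monocyte and recruited macrophage markers were dim apart from Lyz2, which encodes lysozyme M, an antibacterial enzyme of all phagocytes. Lyz2 had signals of 333.1 and 287.5 in WT, 309.6 and 268.7 in Dscr-1 null, 901.9 and 689.6 in ApoE null livers, and 1557 and 932.7 in those of double null mice. The groups did not overlap, and the ratio of means was 3.40 (log2 difference 1.66, standard error 0.28, adjusted p = 0.535 from limma). Ccr2, the receptor that draws monocytes out of the marrow, had signals of 6.7 to 88.7 in ApoE-intact and 50.7 to 76.5 in ApoE-lacking livers. Cx3cr1, the fractalkine receptor, had signals of 5.4 to 67.7 and 12.5 to 89.8, and Itgax, the integrin CD11c, of 16.1 to 57.3 and 15.4 to 75.2. Cd14, a co-receptor for bacterial lipopolysaccharide, had signals of 6.5 to 58.3 and 8.2 to 110.2, and Ms4a7 of 8.9 to 114.3 and 51.2 to 189.9. Itgam, the integrin CD11b, had signals of 2.3 to 37.7 and 3.6 to 11.9. All of these overlapped, and none of those tested had an unadjusted p under 0.05. For Ccr2 the probe sets disagreed, with log2 differences of −0.30 to 0.29 for its 3 dimmer ones against 0.82 for the brightest.

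General myeloid genes were higher in 11 of 11 cases by their brightest probe sets, or in 10 if Laptm5, whose probe sets disagree, is turned. Of the 11, 5 did not overlap between the groups, against 2.24% of all tested genes. Cd52, a small glycoprotein of leukocytes, had signals of 165.6 and 133.2 in WT, 81.2 and 74.4 in Dscr-1 null, 188.8 and 250.7 in ApoE null livers, and 550.4 and 260.1 in those of double null mice (log2 difference 1.29, standard error 0.31, adjusted p = 0.591 from limma). Mpeg1, a pore-forming protein of phagosomes, ranged from 593.8 to 825.1 in ApoE-intact and from 946.0 to 2059 in ApoE-lacking livers. Fcer1g and Tyrobp, adaptors that carry the signal of activating receptors, ranged from 117.3 to 140.1 against 196.1 to 417.3 and from 99.8 to 357.5 against 293.1 to 1131, so that Tyrobp overlapped. Fcgr1, a receptor for IgG, ranged from 41.5 to 54.5 and from 58.4 to 127.4.

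Csf1r, the receptor for the growth factors that keep macrophages alive, ranged from 1540 to 2514 and from 2027 to 4456, and its 3 probe sets gave log2 differences of 0.33 to 0.73. Cybb, a subunit of the phagocyte oxidase, was 149.7 to 168.5 in ApoE-intact livers, 163.3 and 195.7 in ApoE null livers, and 436.5 and 320.1 in double null livers. Ptprc, the leukocyte phosphatase CD45, had a ratio of means of 1.70, and Fcgr3 of 1.91. A dimmer probe set of Ptprc gave a log2 difference of 0.12. Aif1, a calcium-binding protein of macrophages, ranged from 9.9 to 77.5 and from 80.6 to 135.5. Laptm5, a lysosomal membrane protein of blood cells, had a log2 difference of 0.59 by its brightest probe set and of 0.97, 0.95, 0.28 and −0.85 by others, and its direction is therefore uncertain.

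Promoters are shown for members whose groups did not overlap (Cd5l, Lgals3, Lyz2 and Cd68) and for a pair of resident markers whose groups overlapped (Vsig4 and Mrc1), since these genes, all used by macrophages, differed among themselves in the same livers. PU.1, encoded by Spi1, is the master transcription factor of the myeloid lineage, and AP-1 is a stimulus-responsive factor. RefSeq sequences (build GRCm38.p6) were matched by symbol for 27 of the 33 genes. Each line holds the 100 bases before the start of the gene, 5′ to 3′ on the gene's strand, and capitals mark a PU.1 core (GAGGAAG or its reverse complement) or an AP-1 motif (TGANTCA).
Cd5l (chr3:87357781-87357880, + strand): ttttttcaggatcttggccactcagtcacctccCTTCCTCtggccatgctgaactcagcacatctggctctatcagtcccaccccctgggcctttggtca
Lgals3 (chr14:47373760-47373859, + strand): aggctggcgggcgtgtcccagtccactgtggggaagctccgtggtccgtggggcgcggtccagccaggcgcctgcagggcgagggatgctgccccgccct
Lyz2 (chr10:117282273-117282372, - strand): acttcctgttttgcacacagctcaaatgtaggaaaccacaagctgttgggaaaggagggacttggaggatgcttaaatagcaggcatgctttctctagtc
Cd68 (chr11:69666171-69666270, - strand): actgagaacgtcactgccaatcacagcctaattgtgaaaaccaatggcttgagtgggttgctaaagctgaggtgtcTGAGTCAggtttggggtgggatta
Vsig4 (chrX:96293439-96293538, - strand): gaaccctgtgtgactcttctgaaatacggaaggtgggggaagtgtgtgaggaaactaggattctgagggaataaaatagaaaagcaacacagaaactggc
Mrc1 (chr2:14229314-14229413, + strand): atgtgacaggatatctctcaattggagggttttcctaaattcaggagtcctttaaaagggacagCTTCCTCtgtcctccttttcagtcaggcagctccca

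In these windows Cd5l had a PU.1 core at −67 and Mrc1 at −36 from the start, and Cd68 had an AP-1 motif at −24. Lgals3, Lyz2 and Vsig4 had neither. In the 250 bases before the start, searched on both strands, a PU.1 core was found in 9 of 27 members (33.3%) and in 3244 of 27025 genes (12.0%). It was found in 3 of the 10 matched members whose livers did not overlap and in 5 of the 16 others. An AP-1 motif was found in 5 of 27 members (18.5%) and in 7.82% of all genes. Neither motif contains the other. Both shares are a description of the letters, without a test.

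Each genotype without ApoE was also compared with WT, and both comparisons use the same WT arrays. In ApoE null against WT livers, 26 of 32 members were higher (median log2 difference 0.67, all genes 0.01). None of the 31 tested passed, against 0.0136% of all genes. At an unadjusted p under 0.05, 3 were higher (Lgals3, Lyz2 and Cd5l), against 3.46%, and Cd163 was lower, against 2.24%. Since Cd163 was tested only because of the ApoE-intact arrays, its call is no result. Lgals3 differed by 2.11 (standard error 0.55, adjusted p = 0.585 from limma), Cd5l by 1.46 and Lyz2 by 1.31 (standard errors 0.46 and 0.40, adjusted p = 0.641 for both). With a variance trend and robust eBayes these 3 passed (0.271% of all genes), with adjusted p-values of 0.00102 for Cd5l, 0.00174 for Lgals3 and 0.0093 for Lyz2. Without the array that stood apart, ApoE null replicate 1, 25 of 32 members were higher and the median was 0.51.

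In double null against WT livers, 26 of 32 members were higher (median 0.91, all genes 0.02). None passed, against 0.0136% of all genes, and 13 were higher at an unadjusted p under 0.05, against 3.51%. The widest differences were 3.28 for Lgals3 (standard error 0.55), 2.44 for Gpnmb (standard error 0.85), 2.10 for Cd5l (standard error 0.46), 2.05 for Cd68 (standard error 0.51) and 1.91 for Lyz2 (standard error 0.40). The adjusted p from limma was 0.658 for Lgals3, Cd5l and Lyz2. With an offset of 64 in place of 16, or with genes above the median on every array only, Lgals3, Lyz2 and Cd5l passed, along with 0.156% and 0.224% of all genes, and with a variance trend and robust eBayes 9 members did, along with 0.522%. In double null against Dscr-1 null livers, which share the double null arrays with the comparison just given, none passed, against 0.00678% of all genes, and 15 were higher at an unadjusted p under 0.05, against 2.84%. There Lgals3 differed by 3.52, Cd52 by 2.08, Lyz2 by 2.004, Cd5l by 1.92 and C1qb by 1.57 (adjusted p = 0.735 from limma for the first 4 and 0.752 for C1qb).

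Loss of Dscr-1 was compared first in livers with ApoE. In Dscr-1 null against WT livers 11 of 32 members were higher and 21 lower (median −0.11, all genes −0.01). None of the 31 tested passed, against 0.00678% of all genes, and 0 were higher at an unadjusted p under 0.05, against 1.92%. Cd52 differed by −0.81 (standard error 0.44), Cd14 by −1.21 (standard error 0.77) and Cx3cr1 by 1.10 (standard error 0.76), with adjusted p-values of 0.9999 from limma. The count rested on Dscr-1 null replicate 2, without which 17 of 32 members were higher and the median was 0.01. Lyz2 differed by −0.10 and Cd5l by 0.17 (standard errors 0.40 and 0.46).

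**Figure D4:**
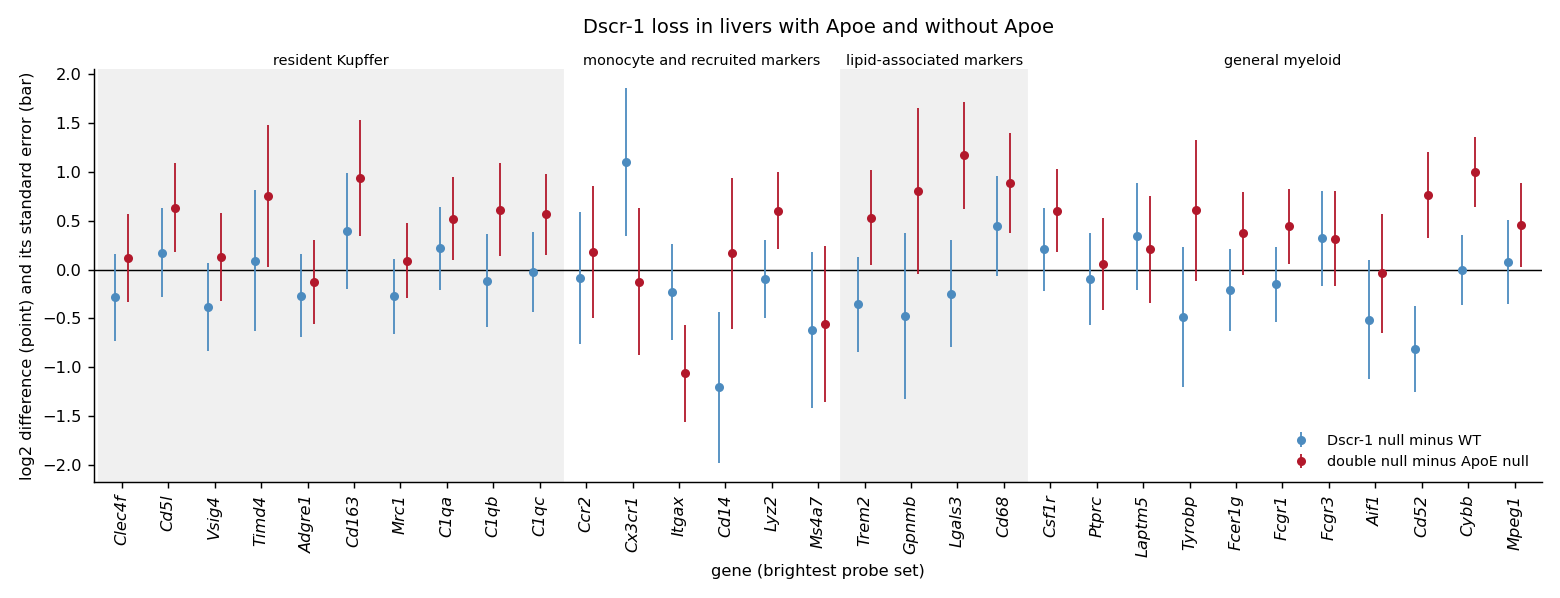
Log2 difference made by Dscr-1 loss for the 31 tested members, in livers with ApoE (Dscr-1 null minus WT, blue) and without it (double null minus ApoE null, red), with bars for the standard error. Lgals3 stood at −0.25 and 1.17, and Cd52 at −0.81 and 0.76; no difference passed an adjusted p under 0.05.

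Loss of Dscr-1 in livers without ApoE was compared through double null and ApoE null mice. Of 32 members, 27 were higher in double null livers (median 0.45, all genes −0.002). None passed, against 0% of all genes, and 1 member, Cybb, was higher at an unadjusted p under 0.05, against 2.83%. Cybb differed by 1.001 (standard error 0.36, adjusted p = 0.673 from limma) and Lgals3 by 1.17 (standard error 0.55, adjusted p = 0.796). Itgax differed by −1.06 (standard error 0.49). Double null replicate 1 gave the highest signal of the 8 livers for 20 of 32 members, and ApoE null replicate 1 for 6. Without double null replicate 1, 20 of 32 were higher and the median was 0.13, and without ApoE null replicate 2, 20 were higher and the median was 0.26.

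The interaction, which asks whether Dscr-1 loss made a different change with ApoE than without it, passed for none of the 31 tested members, against 0% of all genes. Cd52 alone had an unadjusted p under 0.05, against 4.3% of all genes, with a log2 interaction of 1.57 (standard error 0.62), and limma gave it an adjusted p of 0.876. For Cybb it was 1.007 (standard error 0.51) and for Lgals3 1.41 (standard error 0.77). With quantile normalization, 28 of 32 members had a positive interaction (median 0.48, all genes 0.02). Without double null replicate 1, and without that normalization, 23 of 32 did and the median was 0.19 (all genes 0.01).

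The genes that govern macrophages and their lipid handling were taken from lists set beside the members. Of 13 measured growth and transcription factors of Kupffer cells, 8 were higher and 5 lower in ApoE-lacking livers (median 0.22), and 1 was higher at an unadjusted p under 0.05, against 3.94% of all genes, so that 1 of 13 is no result about the list. That gene was Irf8, a transcription factor of monocytes and Kupffer cells (log2 difference 1.08, standard error 0.35, adjusted p = 0.655 from limma). Spi1 had signals of 26.3 to 53.8 in ApoE-intact livers, 14.9 and 49.6 in ApoE null livers, and 155.3 and 56.5 in double null livers. Of 11 other surface and iron genes of Kupffer cells, 9 were higher (median 0.51), led by Marco, a scavenger receptor (1.70, standard error 0.45), Hmox1, the haem oxygenase that degrades haem (1.03, standard error 0.34), and Axl, a receptor for apoptotic cells (0.73, standard error 0.26). Their adjusted p-values were 0.597, 0.666 and 0.685 from limma.

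Of 16 measured further genes of lipid-associated macrophages, 14 were higher (median 0.41). Lpl, the lipoprotein lipase, had signals of 512.5 to 917.9 in ApoE-intact and 1625 to 2572 in ApoE-lacking livers (log2 difference 1.51, standard error 0.25). Capg, an actin-capping protein, lay below the array median on every ApoE-intact array, with signals of 2.3 to 27.5, and at 51.8 to 210.4 on the ApoE-lacking arrays. It was tested only because of the ApoE-lacking arrays, so no size is given for its difference. Mmp12, the macrophage elastase, had signals of 11.5 to 37.9 in ApoE-intact and 70.2 to 95.5 in ApoE-lacking livers. It too was tested only because of the ApoE-lacking arrays, and no size is given. Of 13 measured other monocyte genes, 10 were higher (median 0.48), led by Itgb2, the shared chain of leukocyte integrins (1.60, standard error 0.41). Vcan, a matrix proteoglycan, had signals of 26.4 to 84.4 in ApoE-intact and 5.0 to 44.3 in ApoE-lacking livers. It was tested only because of the ApoE-intact arrays, and no size is given. None of these genes passed an adjusted p under 0.05.

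The 10 genes outside the group whose log2 pattern over the 8 livers was most like the mean of the 31 tested members were Ctsb, Crip1, Tgm2, Clca3a1, Basp1, Tmsb4x, Fcgr4, Pld3, Tmsb10 and Cd74, with Pearson's r of 0.987 down to 0.954 over 8 arrays. The correlations describe arrays of 4 genotypes and carry no test. Fcgr4, a receptor for IgG, had signals of 91.0 to 163.8 in ApoE-intact and 168.3 to 616.2 in ApoE-lacking livers, and Cd74, the invariant chain of MHC class II, of 195.3 to 292.8 and 318.9 to 1081. Both were picked for their likeness to the members, so these ranges are no separate result. Each member is itself part of the mean, so its r is not comparable with those of outside genes. Among the members C1qb followed the mean most closely (r = 0.995) and Cd163 ran against it (r = −0.713).

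Markers of other liver cells were read in the same way. The 7 measured hepatocyte markers had a median difference of 0.16 between ApoE-lacking and ApoE-intact livers, the 7 of sinusoidal endothelium of −0.31 and the 7 of hepatic stellate cells of 0.04. The 6 cholangiocyte markers had a median of 0.48, with 4 higher, which is as large as that of the resident Kupffer cell markers. Their summed signal was 114.0 to 198.7 in ApoE-intact and 154.5 to 341.7 in ApoE-lacking livers. The 6 fibroblast markers had a median of 0.33, with 6 of 6 higher, and summed signals of 2234 to 3918 and 2806 to 4517. The part of these cells in the values of the members was not tested. Among leukocytes, the median was 0.44 for 6 neutrophil markers, 0.12 for 7 T and NK lymphocyte markers, 0.11 for 5 B lymphocyte markers and 0.11 for 5 dendritic cell markers. The summed signal of the neutrophil markers was 167.7 to 301.0 over the 6 WT, Dscr-1 null and ApoE null livers and 440.4 to 521.6 in double null livers. There S100a8 and S100a9 were at 168.6 and 180.5 and at 172.4 and 102.9, above the other livers. Csf3r, Mmp8, Ngp and Cxcr2 overlapped between double null and the other livers, so the higher sum rested on S100a8 and S100a9. Neutrophils also use Lyz2, Fcer1g, Tyrobp and Cybb, and the part of neutrophils in the values of these members was not tested.

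In aortic endothelium the deposited values were log2, on a scale of their own, and were compared only with one another. The endothelial markers Cdh5 and Pecam1 were at 11.91 to 12.10 and 10.24 to 10.73 on the 4 arrays, and the array medians were 4.45 to 4.50. Of the 32 members, 9 were above the median on at least 2 arrays and, as measured, on all 4. These were Clec4f, Cd14, Lyz2, Trem2, Gpnmb, Lgals3, Cd68, Csf1r and Laptm5. The members above the median thus included the macrophage and myeloid genes Csf1r, Cd68, Lyz2, Cd14 and Laptm5. The other 23 members lay below the array median on every aortic array. Among these Adgre1 was at 3.11 to 3.42, Ptprc at 2.71 to 3.10, Tyrobp at 3.11 to 3.91, Aif1 at 2.75 to 3.20, Cd52 at 3.15 to 3.54, Mpeg1 at 3.45 to 3.55 and the C1q chains at 2.66 to 3.53. Spi1 was at 3.79 to 4.03. Clec4f, at 4.71 to 4.82, lay just above the medians.

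**Figure D5:**
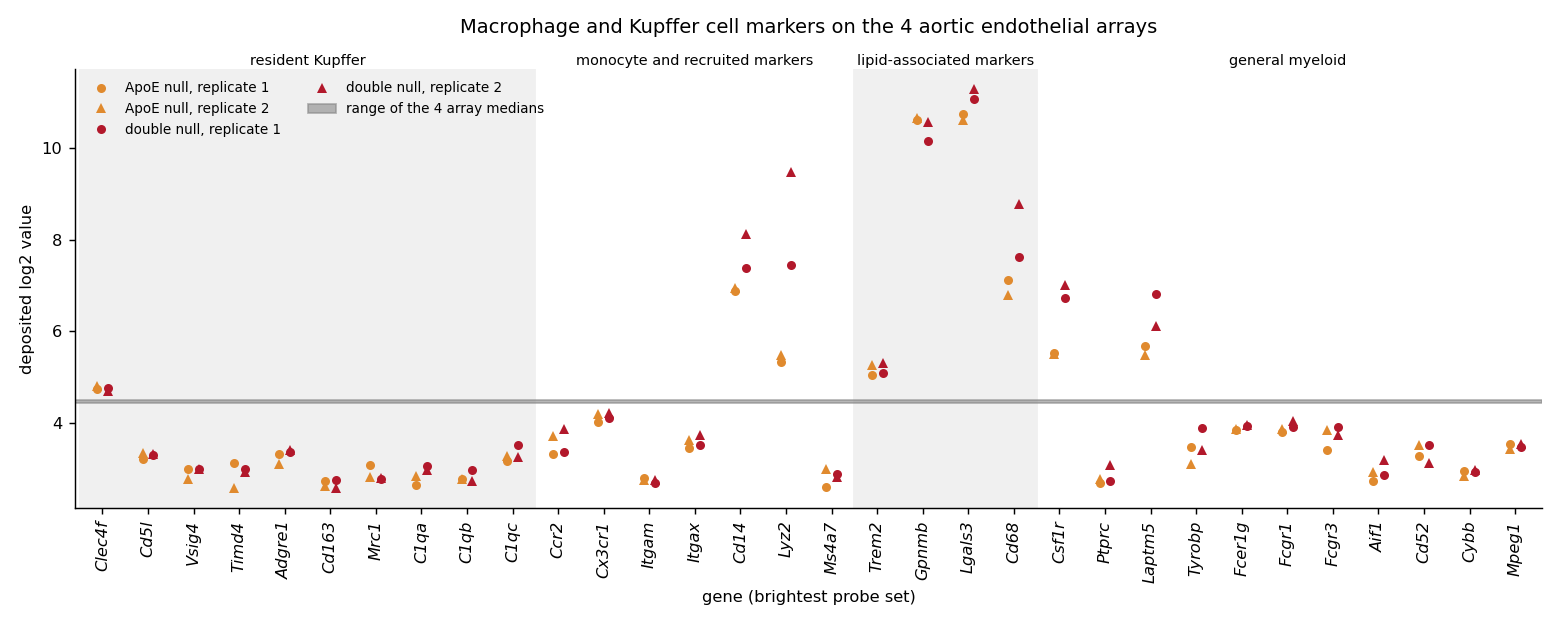
Deposited log2 value of the 32 measured members on the 4 aortic endothelial arrays, with circles and triangles for replicates 1 and 2 and a grey band for the range of the 4 array medians. In all, 23 members lay below the medians. Of the 9 tested, Lyz2, Cd14, Cd68, Csf1r, Laptm5 and Lgals3 were higher on both double null arrays than on both ApoE null arrays. Some members below the medians, among them Adgre1 and C1qa, were so too, and the share of all genes was not counted.

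Of the 9 tested members, 6 were higher in double null than in ApoE null cells at an unadjusted p under 0.05, against 2.67% of all tested genes, and none passed an adjusted p under 0.05, against 0.0172%. Lyz2 was at 5.33 and 5.48 in ApoE null cells and at 7.46 and 9.47 in double null cells. The difference was 2.12 between the replicate 1 arrays and 3.99 between the replicate 2 arrays, which were made in separate runs, and 3.06 in the fit (standard error 0.66, adjusted p = 0.731 from limma). Csf1r was at 5.54 and 5.51 in ApoE null cells and at 6.72 and 7.004 in double null cells, with a difference of 1.34 (standard error 0.17, adjusted p = 0.357 from limma) and of 0.64 and 0.25 by its other probe sets. Cd68 was at 7.11 and 6.80 and at 7.62 and 8.77, with a difference of 1.24 (standard error 0.41), and Cd14 at 6.88 and 6.94 and at 7.38 and 8.12, with one of 0.84 (standard error 0.28). Laptm5 was at 5.69 and 5.49 and at 6.82 and 6.11, with one of 0.88 (standard error 0.28) and of 0.12 to 0.51 by its other probe sets. The count of calls rested on single arrays. Without double null replicate 1, 5 members passed (Lyz2, Csf1r, Cd14, Cd68 and Lgals3), but so did 17.1% of all genes, and without double null replicate 2, 3 passed (Lyz2, Csf1r and Laptm5) along with 4.15% of all genes. Those fits assume that the lone double null array varies like the ApoE null pair.

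The lipid-associated markers were split in the aortic cells. Lgals3 was at 10.73 and 10.59 in ApoE null cells and at 11.06 and 11.27 in double null cells, a difference of 0.51 (standard error 0.16). Gpnmb was at 10.60 and 10.64 and at 10.14 and 10.56, a difference of −0.27 (standard error 0.20), and Trem2 at 5.04 and 5.27 and at 5.10 and 5.32. Lgals3 and Gpnmb lay at the 94.8th percentile of probe sets or higher on every array, and Csf1r, Cd68 and Lyz2 between the 58.8th and the 91.9th. The aortic samples also differed in markers of other cells. The mean log2 value of 6 fibroblast markers was 7.54 and 7.42 in ApoE null cells, and 8.85 in double null replicate 1 but 7.04 in replicate 2. Among them Dcn, a matrix proteoglycan, was higher on both double null arrays (12.02 and 12.02 against 12.79 and 13.09), and Lum, Pdgfra, Col3a1 and Pdgfrb were higher on replicate 1 and lower on replicate 2 than on both ApoE null arrays. Vwf, an endothelial secretory protein, was at 6.63 in double null replicate 2 and at 9.26 to 9.44 on the other 3 arrays. The part of other cells in the values of the members was not tested. Msr1, a scavenger receptor of macrophages outside the group that was chosen after its values were seen, differed in the other direction from Lyz2 and Csf1r, at 6.46 and 6.60 in ApoE null cells and 4.71 and 4.76 in double null cells (log2 difference −1.79, standard error 0.15, adjusted p = 0.155 from limma).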

How the data were processed

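Total RNA of 8 livers and of 4 aortic endothelial cell cultures was hybridised to Affymetrix Mouse Genome 430 2.0 arrays, none pooled. The deposited liver values are MAS5 signal intensity on a linear scale, brought by the authors to the same average of 100 per array (trimmed means 99.26 to 99.33). The deposited aortic values are log2, with normalization not stated in any source used here; Transcriptome Analysis Console is named in the submitters' processing notes. Array intensity carries no read depth, so the number of arrays limits the precision. Nothing in the labels says more of the replicates' independence than that liver samples came from separate mice, and for aortic cells p-values measure the spread between these samples.

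After removal of 64 control probe sets, 45037 remained, of which 34945 had 1 gene symbol, 932 several and 9160 none, and 34741 were matched to current symbols by Entrez number. Differences were fitted in limma 3.58.1 (R 4.3.3; lmFit and eBayes without trend) on log2(signal + 16) for liver and on the log2 values as deposited for aorta, with Benjamini-Hochberg adjustment over 32005 and 22927 probe sets above the array median on at least 2 arrays. Residual degrees of freedom were 4 and 2. The aortic groups were taken from titles and genotype labels, which name ApoE null as the control, whereas the series design names Dscr-1 null. Apoe differed by 0.28 (log2, standard error 0.53) between the aortic groups. The aortic source names place same-numbered arrays in 1 run, and their deviations correlated at 0.223; liver numbers did not pair (r −0.000374 to 0.0312). Intervals are unadjusted. The script was tested on simulated data.

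Members and lists were chosen with earlier results of these data known. Statistics were named for up to 6 members with the lowest p per comparison and up to 3 genes per further list. They were also named for the 10 genes most like the members' mean. Others are given as values, with statistics for a few chosen after their values were seen. Alternatives were the offset, quantile normalization, the filter, the mean of all probe sets, trended and robust eBayes, a replicate block, each array left out, and 2-fold or unadjusted calls. Counts of members higher under other settings were added after the data were seen.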

Additional observations from a re-analysis of the deposited data

Results flagged for a closer look

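Lgals3 and Cd52 differed in the direction of the change with Dscr-1 loss in liver. For both, every Dscr-1 null array lay below every WT array, while every double null array lay above every ApoE null array. For Lgals3 the gaps were narrow, from 131.2 (Dscr-1 null) to 132.5 (WT) and from 1044 (ApoE null) to 1051 (double null). The share of all genes with such a pattern, with 2 arrays per genotype, was not counted, so it is no result about these members. The interaction on the log2 scale was 1.41 for Lgals3 (standard error 0.77, adjusted p = 0.994 from limma) and 1.57 for Cd52 (standard error 0.62, adjusted p = 0.876 from limma), so neither difference passed the test across all genes.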

How the results depend on the processing

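No member passed an adjusted p under 0.05 in any comparison in the analysis as designed, and offset 1, quantile normalization, no filter, the mean of all probe sets and the replicate block also gave 0 in every comparison in which they were run. The replicate block changed no call among the members, and in aortic endothelium it took the genes called among all tested from 2 to 0. In ApoE-lacking against ApoE-intact livers, 4 members passed with an offset of 64 (0.196% of all genes), 3 with a filter on every array (0.295%), 10 with trended and robust eBayes (0.474%), 15 by more than 2-fold (10.7%) and 18 at an unadjusted p under 0.05 (5.69%). In ApoE null against WT livers the last 3 of these settings gave 3, 8 and 4 (0.271%, 21.1% and 5.71% of all genes), so that the 2-fold share was near that of all genes. In both comparisons the 2-fold and the unadjusted counts include Cd163, which was tested only because of the ApoE-intact arrays. In double null against WT livers the same 5 settings gave 3, 3, 9, 18 and 13 (0.156%, 0.224%, 0.522%, 19.2% and 5.29% of all genes), and in double null against Dscr-1 null livers 3, 1, 8, 19 and 15 (0.0609%, 0.0421%, 0.19%, 18.5% and 4.32%). For Dscr-1 null against WT livers 2 members passed 2-fold (17.8% of all genes), and for double null against ApoE null livers 5 passed 2-fold (19.1%) and 1 an unadjusted p under 0.05 (5.24%), as did 1 for the interaction (4.3%), for which the 2-fold rule was not run. In aortic endothelium 3 members passed 2-fold (2.19% of all genes) and 6 an unadjusted p under 0.05 (4.95%). Leaving out 1 array gave 0 to 0 members in each liver comparison and 0 to 5 in aortic endothelium (5 without double null replicate 1 and 3 without double null replicate 2), where the median prior degrees of freedom rose from 2.91 to 38.9 and 43.0. The count of 12 members that did not overlap ran from 12 to 17 without 1 array. Leaving out an array cannot make separate groups overlap, so this range does not show that the count held. The share of all genes was not counted for it. The single reversal was Aif1 in Dscr-1 null against WT livers, −0.51 as designed and 0.41 without Dscr-1 null replicate 2, with a range of −1.44 to 0.41 over the arrays left out. The cause of these changes was not tested. Dim probe sets, among them most monocyte markers, limit what can be told apart.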
